A study of Mus musculus with 32 samples.

Results

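Adgrl2, Fam92a, Mtdh and Slitrk2 are 4 mouse genes whose names are carried by sets of intergenic chromatin-bound transcripts that were lower in histone H1 triple-knockout cells. They are 4 of the 3483 gene names in the authors' deposited table of changed chromatin-bound transcripts. Every entry of any class that carried one of these names was taken, 29 of 5723 entries, and R-loop peaks were read over the span from the first to the last entry of each name. The genes were chosen by the cheRNA values themselves, so these values are given as a description without a test. The 4 genes are the only names with at least 5 lower intergenic entries. The study compared mouse embryonic stem cells with a triple knockout of histone H1 genes (H1-TKO, called TKO below) with their wild-type counterpart (WT). Both were grown in serum with LIF and given no further treatment. How much H1 the TKO cells keep is not shown by the data used here. The cheRNA assay sequenced RNA that stays with chromatin, from 3 TKO and 3 WT samples. MapR maps R-loops with MNase fused to the RNA:DNA hybrid-binding domain of RNase H (GST-RH-MNase, called RNH), in 2 TKO and 2 WT libraries, and with GST-MNase alone in 1 TKO and 1 WT control library. The labels do not say whether replicates came from separate cultures or how many knockout clones were used.

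Linker histone H1 binds nucleosomes at the entry and exit of DNA and helps to compact chromatin. RNA polymerase II also transcribes DNA outside genes, and most of the RNA made there is unstable and stays on chromatin. An R-loop is a hybrid of RNA with one DNA strand that leaves the other strand single, and it forms most readily over GC-rich DNA at active promoters. Adgrl2 encodes latrophilin 2, an adhesion G protein-coupled receptor that binds teneurins and FLRT proteins at synapses. Fam92a, called Cibar1 in newer annotation, encodes a BAR-domain protein at the base of the primary cilium. Mtdh encodes metadherin, a membrane and nuclear protein that binds the nuclease Snd1 and is known from tumours. Slitrk2 encodes a leucine-rich repeat membrane protein of synapses on the X chromosome.

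The DNA under the R-loop peaks of the 4 spans is shown first, because it sets how the peaks can be read. Each sequence is 300 bases around the summit of a peak in TKO RNH replicate 1, except the last, which is from WT RNH replicate 1. All are from the RefSeq copy of build GRCm38, the same assembly as mm10.
The first sequence lies in an intron beside the starts of Adgrl2, at chr3:148989770-148990069 on the + strand. It is shown because a peak was called there in both TKO replicates and in WT replicate 1, and capitals mark runs of at least 4 G or 4 C.
Adgrl2 start: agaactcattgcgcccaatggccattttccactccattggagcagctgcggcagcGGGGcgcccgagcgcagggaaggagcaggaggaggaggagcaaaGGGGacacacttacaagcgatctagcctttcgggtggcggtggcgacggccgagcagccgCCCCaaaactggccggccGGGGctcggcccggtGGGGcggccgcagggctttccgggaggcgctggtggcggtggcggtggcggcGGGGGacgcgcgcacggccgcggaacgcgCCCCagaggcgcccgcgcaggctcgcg
The following pair shows that peaks in the Fam92a and Slitrk2 spans lie on copies of the same repeat. The Fam92a window is chr4:12402524-12402823 on the + strand and the Slitrk2 window is chrX:66494773-66495072 on the - strand. Capitals mark the longest stretch that both share, 105 bases.
Fam92a repeat A: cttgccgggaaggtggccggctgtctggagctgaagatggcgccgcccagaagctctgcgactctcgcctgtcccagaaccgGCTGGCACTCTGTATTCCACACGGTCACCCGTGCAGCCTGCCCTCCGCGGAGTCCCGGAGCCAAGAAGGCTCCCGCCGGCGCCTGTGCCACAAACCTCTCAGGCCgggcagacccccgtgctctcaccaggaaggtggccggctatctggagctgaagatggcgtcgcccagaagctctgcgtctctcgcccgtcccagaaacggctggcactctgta
Slitrk2 repeat A: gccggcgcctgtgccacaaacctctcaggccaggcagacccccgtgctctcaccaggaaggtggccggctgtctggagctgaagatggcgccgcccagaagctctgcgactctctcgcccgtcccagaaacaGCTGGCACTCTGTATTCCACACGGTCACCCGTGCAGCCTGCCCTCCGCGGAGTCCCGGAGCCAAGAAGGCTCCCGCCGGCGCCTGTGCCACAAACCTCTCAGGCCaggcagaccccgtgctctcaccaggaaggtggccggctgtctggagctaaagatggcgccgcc
A second pair from the same spans, chr4:12431195-12431494 and chrX:66451960-66452259, both on the + strand, shares the 128 bases in capitals.
Fam92a repeat B: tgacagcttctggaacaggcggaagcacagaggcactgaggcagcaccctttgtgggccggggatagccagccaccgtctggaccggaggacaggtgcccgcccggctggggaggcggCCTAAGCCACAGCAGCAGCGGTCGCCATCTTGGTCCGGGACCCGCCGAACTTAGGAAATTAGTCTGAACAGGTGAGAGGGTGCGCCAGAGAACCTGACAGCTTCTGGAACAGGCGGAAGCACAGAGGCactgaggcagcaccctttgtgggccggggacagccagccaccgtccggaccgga
Slitrk2 repeat B: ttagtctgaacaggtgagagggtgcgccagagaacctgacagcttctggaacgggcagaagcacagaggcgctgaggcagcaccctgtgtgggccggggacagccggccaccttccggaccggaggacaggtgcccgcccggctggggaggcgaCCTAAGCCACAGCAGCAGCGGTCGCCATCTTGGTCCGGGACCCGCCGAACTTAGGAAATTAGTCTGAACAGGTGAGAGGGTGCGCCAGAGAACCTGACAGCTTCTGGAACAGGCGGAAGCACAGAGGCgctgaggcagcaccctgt
The last sequence, chr15:34008832-34009131 on the + strand, lies between the run of lower Mtdh-named transcripts and the higher one, just upstream of that run, and carried a peak in WT replicate 1 only. Capitals again mark runs of at least 4 G or 4 C.
Mtdh run upstream: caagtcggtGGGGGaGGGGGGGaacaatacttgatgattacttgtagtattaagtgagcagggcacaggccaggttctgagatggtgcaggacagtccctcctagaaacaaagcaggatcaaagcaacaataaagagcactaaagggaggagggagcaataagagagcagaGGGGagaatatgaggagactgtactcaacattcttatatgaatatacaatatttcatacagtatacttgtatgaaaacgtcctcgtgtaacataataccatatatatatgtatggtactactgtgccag

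Of the 29 entries named for the 4 genes, 27 were lower and 2 were higher in TKO in the authors' deposited table. Among entries of all names, 39.9% were lower. By class, 25 of the 27 intergenic entries of the 4 genes were lower in the authors' deposited table, against 26% of the 1937 intergenic entries of all names. The gene entry and the entry on the 5′ side, both of Adgrl2, were lower too, where the authors' deposited table had 55% of gene entries and 33.6% of 5′-side entries lower. These counts were used to choose the genes, so nothing is read from them. The table gives log2 fold changes with no values per sample, no error and no p-value, and none below an absolute log2 of 1.00, so unchanged transcripts are not in it. Its direction is not stated. The sign of every value below was turned round, by a factor of -1, so that the 3 deleted H1 genes come out low in TKO, at -5.02 for Hist1h1d, -4.83 for Hist1h1e and -3.61 for Hist1h1c on the log2 scale of the authors' deposited table. The direction is thus an inference. In bulk samples, fewer cells that make an RNA and less of it per cell cannot be told apart.

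**Figure D1:**
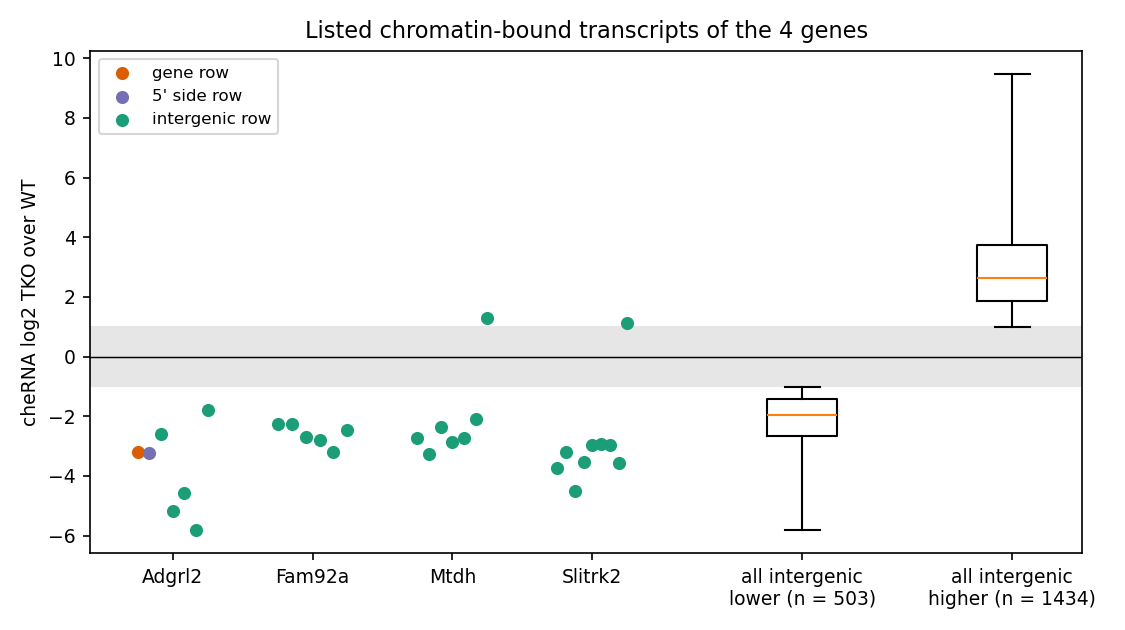
Each point is 1 entry of the authors' deposited table, placed by gene name on the x axis, in genome order within a name, and by log2 cheRNA fold change TKO over WT on the y axis; boxes show the quartiles and whiskers the full range of all 503 lower and 1434 higher intergenic entries, and no value lies in the grey band between -1 and 1. The lower entries of Fam92a and Mtdh lie in narrow ranges, those of Adgrl2 spread from -5.82 to -1.78, and Mtdh and Slitrk2 have 1 higher entry each.

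The median log2 of the 25 lower intergenic entries of the 4 genes was -2.92 in the authors' deposited table, a 7.57-fold difference, against -1.96 or 3.88-fold for all 503 lower intergenic entries. Over all classes, the 27 lower entries had a median log2 of -2.96 in the authors' deposited table and ran from 3.43-fold to 56.5-fold lower. Of the 1393 names with any intergenic entry, 22 had at least 5, and in 13 of these names every intergenic entry was higher in TKO. At least 5 lower intergenic entries were found for 4 of the 22 names (18.2%), the 4 genes themselves. The limit of 5 is the fewest that any of the 4 genes has, so this share follows from the choice. All intergenic entries were lower for 2 of the 22 (9.09%), Adgrl2 and Fam92a. The names just below the limit of 5 had 4 lower intergenic entries. There were 9 of them, and their median log2 over intergenic entries ran from -4.41 for Gm14725 to -1.24 for Pid1 in the authors' deposited table. The 4 names just inside had medians from -4.57 for Adgrl2 to -2.57 for Fam92a in the authors' deposited table. No other name with at least 5 intergenic entries had all of them lower, so no further gene with the same pattern is named.

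**Figure D2:**
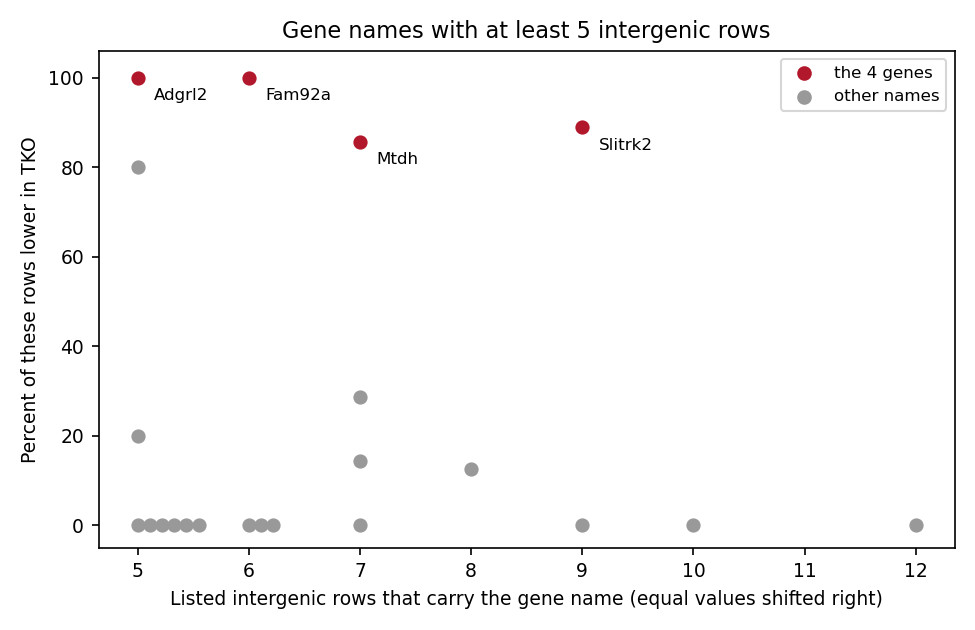
Each point is 1 of the 22 gene names with at least 5 intergenic entries in the authors' deposited table; the x axis counts these entries and the y axis gives the percent of them that were lower in TKO. The 4 genes, in red, lie between 85.7% and 100%, the nearest other name, Pou3f1, is at 80%, and 13 names lie at 0%; equal points are shifted right.

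Adgrl2 differed from the other 3 genes in that the gene itself was among the lower transcripts. Its span, chr3:148812440-149219846, is 407407 bp long and 54.6% covered by its 7 entries. The gene (ENSMUSG00000028184.12, chr3:148815583-148990555, - strand) had an entry over most of its body, chr3:148812440-148954635, at a log2 of -3.20 or 9.20-fold lower in the authors' deposited table. The adjoining 5′-side entry, chr3:148954637-148990069, was at -3.23 or 9.39-fold lower in the authors' deposited table. It starts 1 bp beyond the gene entry on the same strand and lies inside the annotated gene, so both cover one transcription unit.

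The 5 intergenic entries of Adgrl2 lie over its start and up to 226971 bp beyond it. The first, chr3:148989251-149011694, runs on the + strand away from the Adgrl2 start over the antisense RNA Gm43573 and the processed transcript Gm43572, and was at -2.60 in the authors' deposited table. The other 4 overlap no annotated gene. The entry at chr3:149126456-149135286, 135901 bp from the gene on the + strand, was at -5.82 or 56.5-fold lower, the lowest value of all 1937 intergenic entries in the authors' deposited table. Its + strand neighbour at chr3:149112493-149122193 was at -4.57 or 23.8-fold lower in the authors' deposited table. A - strand entry at chr3:149075051-149077322 was at -5.18 or 36.3-fold lower in the authors' deposited table. The most distant entry, chr3:149217526-149219846, on the - strand, was at -1.78 or 3.43-fold lower in the authors' deposited table, the smallest fall of the 27. Of the 7 lower entries, 4 lay on the - strand with the gene and 3 on the + strand. No transcript of another name was listed within 500 kb of the Adgrl2 span.

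Fam92a lent its name to a run of transcripts with no annotated gene among them. Its 6 entries all lie on the + strand in chr4:12398238-12538624, a span of 140387 bp that is 70.8% covered. The gene itself (ENSMUSG00000028218.19, chr4:12153409-12172015, - strand) lies 226223 bp away, and the run is upstream of its start. The log2 values in genome order were -2.26, -2.27, -2.69, -2.78, -3.20 and -2.45 in the authors' deposited table, that is 4.80-fold to 9.22-fold lower. The entries were 5083 to 27020 bp long with gaps of 4625 to 14554 bp. The run goes on under another name. After a gap of 3052 bp, 3 more + strand entries named for Triqk were at -3.95, -3.41 and -2.63 in the authors' deposited table, with the Triqk gene still 318235 bp beyond the last. Together the 9 entries span 190366 bp with a median log2 of -2.69 in the authors' deposited table. Their largest gap, 29528 bp, lies before the last Triqk-named entry. No entry over the Fam92a gene itself is in the table.

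Mtdh had a run of the same kind on the - strand, with a higher transcript beyond it over the gene's own start. Its 6 lower entries, all on the - strand between chr15:33897662-33918475 and chr15:33996516-34008567, overlap no annotated gene and lie 74127 to 164219 bp from Mtdh (ENSMUSG00000022255.16, chr15:34082694-34145624, + strand). Their log2 values in genome order were -2.73, -3.26, -2.37, -2.85, -2.72 and -2.09 in the authors' deposited table, or 4.25-fold to 9.60-fold lower. The 7th entry, chr15:34024328-34083381, was higher in TKO at 1.29 or 2.44-fold in the authors' deposited table. It runs antisense to Mtdh from inside the gene's first bases and covers most of the lincRNA Gm41290 on the same strand. The higher entry and the 6 lower ones thus share a strand, with a gap of 15760 bp between them. The span of 185720 bp was 78.6% covered, and no gene entry for Mtdh itself is in the table. The nearest listed transcript beyond the span, an antisense RNA within Matn2 274971 bp away, was higher in TKO at 2.35 in the authors' deposited table.

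Slitrk2 had the most lower intergenic entries of any name, 8. They lie in chrX:66376020-66503758, between 145560 and 267681 bp upstream of the gene (ENSMUSG00000036790.5, chrX:66649318-66661393, + strand). On the - strand, 7 entries were at -3.74, -3.19, -4.51, -3.54, -2.97, -2.92 and -2.96 in genome order in the authors' deposited table. The + strand entry nearest to the gene, 1830 bp long, was at -3.56 in the authors' deposited table. The folds of the 8 ran from 7.57-fold to 22.8-fold lower in the authors' deposited table, and the lowest value belonged to an entry of 2792 bp, chrX:66390565-66393356. The only annotated gene they overlap is the small RNA Gm23028, on the other strand. A higher entry on the far side of the gene, chrX:66778423-66778844, was at 1.14 or 2.21-fold in the authors' deposited table. It lies over the processed pseudogene Gm14681 on the same strand, beside the microRNA genes Mir743 and Mir743b. Whether its reads are shared with the parent gene of the pseudogene was not tested. The whole span of 402825 bp was only 17.4% covered, and no gene entry for Slitrk2 is in the table. As for Adgrl2, no transcript of another name was listed within 500 kb of it.

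The chromosomes differed in how often intergenic entries were lower. On the X chromosome 53% of the 83 intergenic entries were lower in the authors' deposited table, and 48.6% of the 74 entries without those of Slitrk2. On chromosome 3, the chromosome of Adgrl2, 39.5% were lower in the authors' deposited table. On chromosome 4, that of Fam92a, the share was 28.8%, and on chromosome 15, that of Mtdh, it was 24.7% in the authors' deposited table. The shares of chromosomes 3, 4 and 15 include the entries of these genes. The lower intergenic entries of the 4 genes had a median GC content of 41.2%, against 42.9% for all lower intergenic entries and 44.8% for all higher ones. Repeats made up a median of 37.0% of their bases, against 26.5% of all lower intergenic entries. By median, the gaps under 20 kb between them held more repeats than the entries themselves in every span. The ranges overlapped for Mtdh, Slitrk2 and Fam92a. Mtdh gaps, for example, held 24.0% to 96.4% and its lower entries 32.6% to 61.1%. For Mtdh the medians were 77.0% in 5 gaps and 44.4% in 6 entries, for Slitrk2 75.7% in 6 gaps and 46.2% in 8 entries, and for Fam92a 45.9% in 5 gaps and 19.0% in 6 entries. For Adgrl2, with a single such gap, the values were 56.7% and 16.7%. Whether entries of one run are pieces of one longer RNA was not tested.

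R-loop peaks were not used to choose the genes. In all, TKO RNH libraries 1 and 2 had 25392 and 6458 peaks, and WT RNH libraries 1 and 2 had 22336 and 6612. The MNase-only controls had 582 peaks in TKO and 568 in WT. Read depth is not known from these lists, and replicate 1 had more peaks than replicate 2 in both genotypes. Peaks over an MNase-only peak were left out of the counts that follow.

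Over the 4 spans together, TKO replicate 1 had 11 peaks and TKO replicate 2 had 2, while WT replicate 1 had 11 and WT replicate 2 had 0. As a share of each library's peaks, this was 0.0387% ± 0.00766 in TKO and 0.0251% ± 0.0355 in WT (SD, n = 2 each). The log2 difference of shares, TKO over WT with 0.5 added to each count, was 1.09, with p = 1 in a two-sided exact permutation test, where the smallest p that 2 against 2 libraries allow is 0.333. The difference rests on the WT library with no peak: without WT replicate 2 it was -0.26. The groups overlapped, and no difference was detectable with these lists.

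By span, Adgrl2 held 2 and 1 peaks in TKO and 2 and 0 in WT, and its log2 difference was 0.72 with an exact permutation p of 0.667. Fam92a held 4 and 0 peaks in TKO and 3 and 0 in WT, a log2 difference of 0.11 with an exact p of 0.667. Mtdh held 1 and 1 peaks in TKO and 5 and 0 in WT, a log2 difference of -0.22 with an exact p of 0.667. Slitrk2 held 4 and 0 peaks in TKO and 1 and 0 in WT, a log2 difference of 0.72 with an exact p of 0.333. Adjusted over the 4 spans by Benjamini-Hochberg, every one of these permutation p-values was 0.667. In both genotypes the libraries numbered 2 lacked peaks over the Fam92a and Slitrk2 spans.

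**Figure D3:**
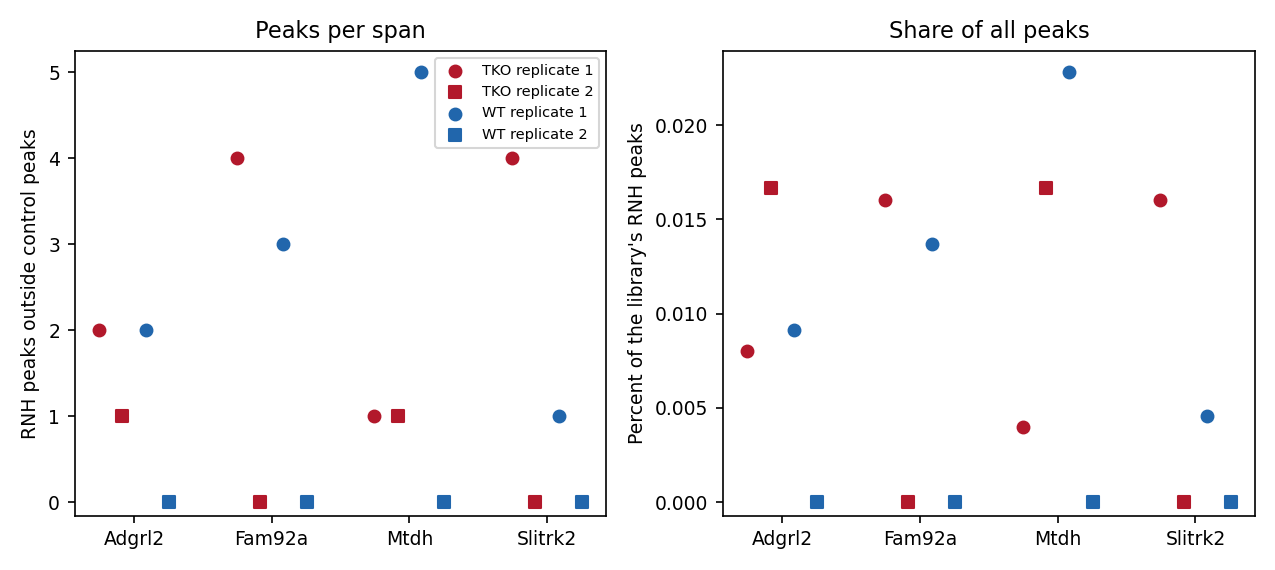
RNH peaks outside MNase-only peaks over each of the 4 spans, as numbers (left) and as percent of all such peaks of the library (right); each point is 1 library, TKO in red left of WT in blue, circles for replicate 1 and squares for replicate 2. The 5 WT replicate 1 peaks over the Mtdh span stand highest in number, followed by the 4 TKO replicate 1 peaks over each of the Fam92a and Slitrk2 spans, and WT replicate 2 lies at 0 in every span.

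At the gene starts, R-loop peaks were found at Adgrl2, Mtdh and Fam92a. Within 1 kb of an annotated start, Adgrl2 had 2 and 1 peaks in the TKO RNH libraries and 1 and 0 in the WT RNH libraries, with highest fold enrichments of 3.43 and 3.87 in TKO and 3.69 in WT. These folds are the authors' own, each peak over its local background. Mtdh had 1 and 1 start peaks in TKO and 1 and 0 in WT, at 4.84-fold and 5.07-fold in TKO and 4.40-fold in WT. Fam92a had 1 start peak in TKO replicate 1, at 4.63-fold, and none in TKO replicate 2 or either WT library. Slitrk2 had none in any library. Of all 21924 annotated protein-coding genes, 50.2% and 14.6% had a start peak in TKO RNH replicates 1 and 2, and 45.1% and 11.5% in WT RNH replicates 1 and 2. No MNase-only library had a peak at any of these starts, and 0.132% of all protein-coding genes had one in the TKO and 0.141% in the WT MNase-only library. The windows under the 3 Mtdh start peaks had 73.7% to 75.0% GC and no repeat, and those under the 5 Adgrl2 peaks outside the control peak had 61.7% to 74.3% GC. Runs of 4 G or 4 C, searched on both strands as GGGG and CCCC, were in all 8 of these windows, but also in 91.7% to 93.1% of all windows of the 4 RNH libraries.

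Over the lower transcripts of Mtdh and Slitrk2 themselves no peak was called in any library. Over those of Adgrl2, TKO replicates 1 and 2 had 2 and 1 peaks and WT replicates 1 and 2 had 2 and 0, all overlapping the 5′-side entry close to the gene's start. Of these 5 peaks, 4 also overlapped the lower + strand intergenic entry that begins there. Over those of Fam92a, TKO replicates 1 and 2 had 2 and 0 and WT replicates 1 and 2 had 1 and 0, all in the first entry of the run. The remaining peaks of the spans lay between transcripts, over the higher Mtdh entry or beyond the runs.

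**Figure D4:**
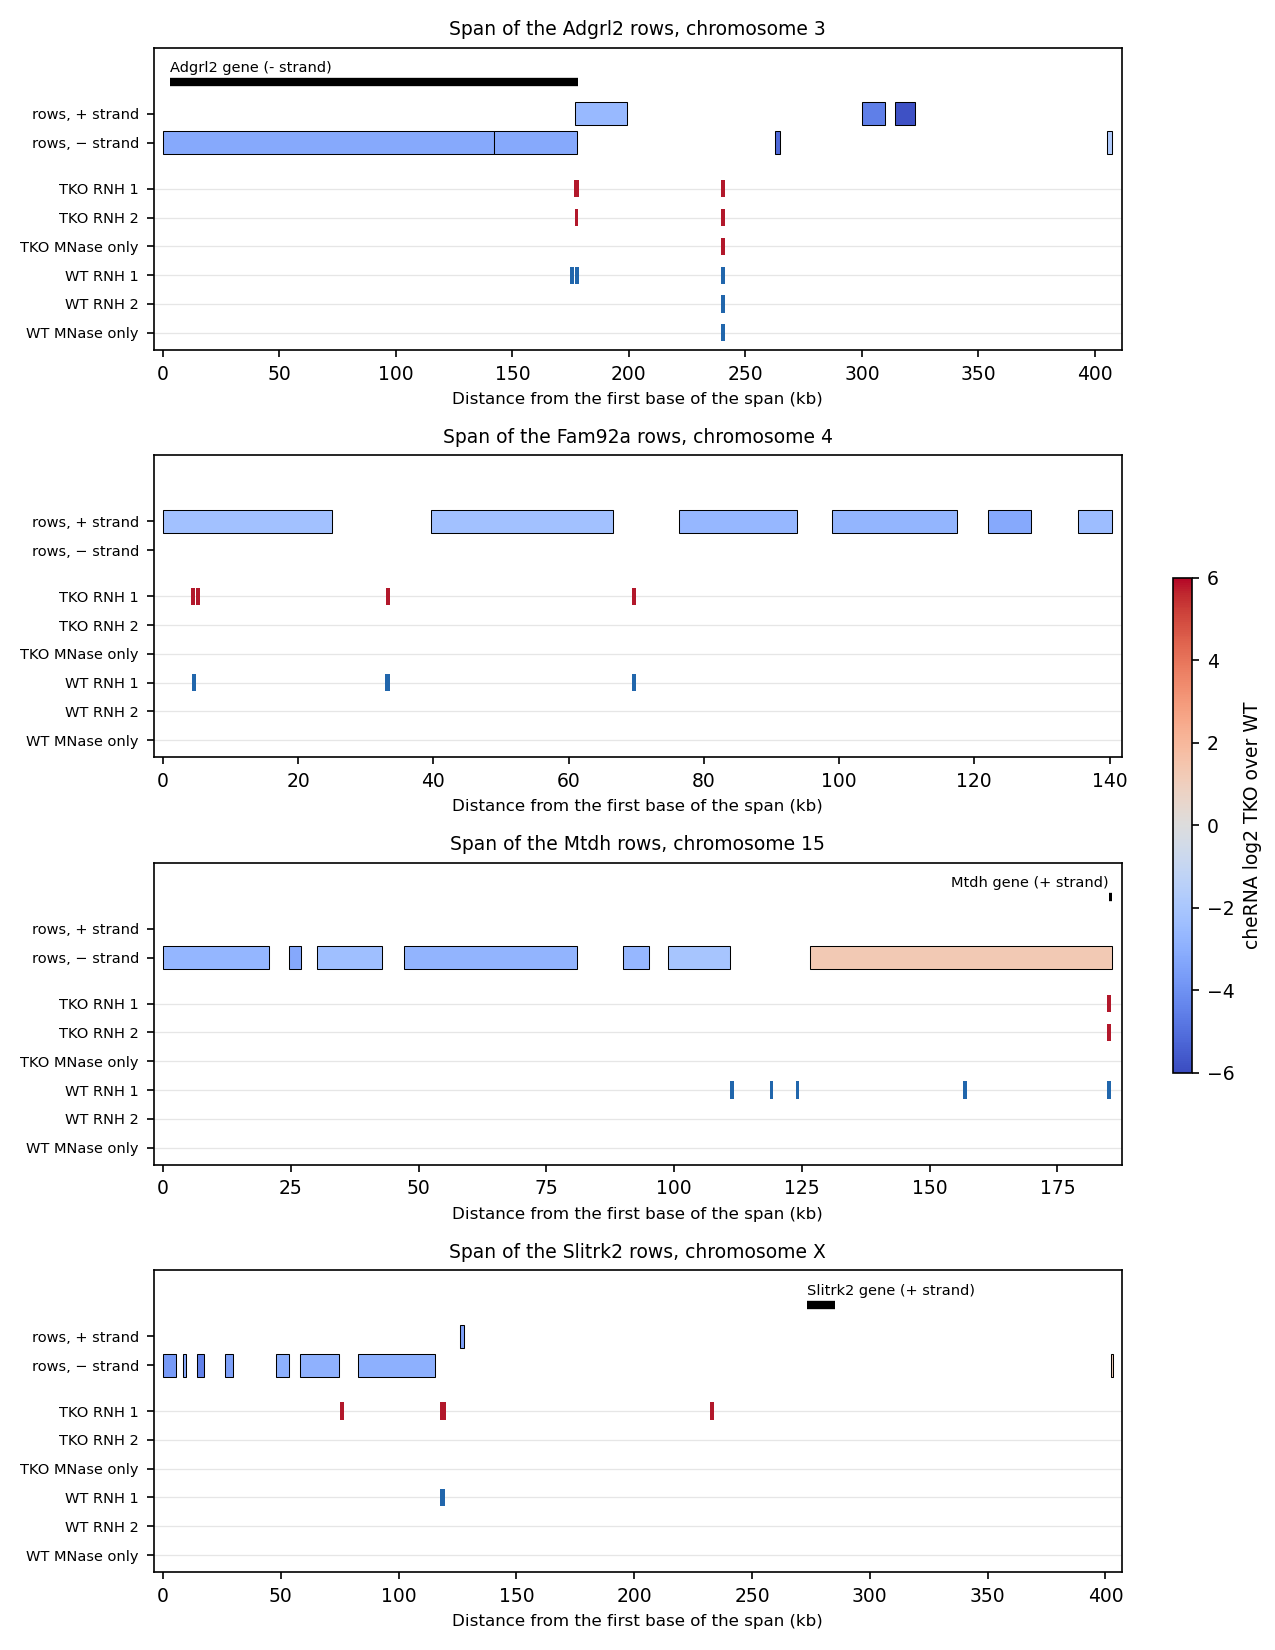
Maps of the 4 spans to scale, with distance from the first base of each span in kb on the x axis; boxes are entries of the authors' deposited table by strand, coloured by log2 cheRNA fold change TKO over WT, the black bar is the annotated gene, and ticks (widened to be seen) are peaks of each MapR library, TKO in red above WT in blue. Lower entries, in blue boxes, lie all on 1 strand at Fam92a and Mtdh and, for 7 of 8, at Slitrk2. Peaks lie both over and between lower entries at Fam92a, over no entry at Slitrk2 and over no lower entry at Mtdh. At Adgrl2 they lie over lower entries close to the gene's start, and all 6 libraries share 1 further peak in its span.

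The peak shared by all 6 libraries lay between the Adgrl2 transcripts, outside any annotated gene. Its fold enrichments were 15.0 and 18.4 in the TKO RNH libraries and 15.9 in the TKO MNase-only control, and 13.7 and 17.4 in the WT RNH libraries and 15.9 in the WT MNase-only control. The controls lay within the range of the RNH libraries. As it overlaps MNase-only peaks, this peak was left out of the counts. Its windows were 94.7% to 100% repeat sequence.

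The Fam92a peaks of replicate 1 lay at the same 3 places in TKO and WT. Near chr4:12402423-12403638, inside the first transcript of the run, TKO had peaks of 4.01-fold and 5.24-fold and WT had one of 3.55-fold. Near chr4:12431197-12431820 the folds were 4.64 in TKO and 4.54 in WT, and near chr4:12467573-12468187 they were 4.72 in TKO and 3.58 in WT, both between transcripts. In the Slitrk2 span, TKO replicate 1 had peaks of 4.08-fold and 3.51-fold at chrX:66493699-66495175 and chrX:66495332-66495717, where WT replicate 1 had one wide peak of 4.96-fold. Its other 2 peaks, 5.05-fold at chrX:66451962-66452279 and 3.61-fold at chrX:66608936-66609363, had no WT counterpart.

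All of these Fam92a and Slitrk2 peaks lay on repeats. The 7 Fam92a windows were 98% to 100% and the 5 Slitrk2 windows 100% repeat sequence, where windows at least 95% repeat were 19.0% and 9.54% of all windows in TKO replicates 1 and 2 and 16.9% and 24.0% in WT replicates 1 and 2. The windows printed as repeat A were 96.7% identical over 246 aligned bases, and those printed as repeat B 96.2% identical over 262. The shared 105-base stretch occurs without a mismatch 944 times in the genome and the 128-base stretch 884 times, on both strands together. MapR reads were pairs of 50 bases, so a read that lies wholly inside such a stretch matches every one of these copies. How reads with several matches were placed is not given in the labels, and whether these peaks belong to these copies was not tested. The 105-base stretch was in 0.965% and 0.0619% of windows in TKO replicates 1 and 2 and in 1.01% and 0.0605% in WT replicates 1 and 2. The 128-base stretch was in 1% and 0.449% of windows in TKO replicates 1 and 2 and in 1.06% and 0.938% in WT replicates 1 and 2. With windows at least 95% repeat left out, which was chosen after seeing the data, no peak remained over the Fam92a and Slitrk2 spans. The 4 spans then held 3 and 2 peaks in TKO and 7 and 0 in WT, with a log2 difference of 0.42 and an exact permutation p of 0.667.

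**Figure D5:**
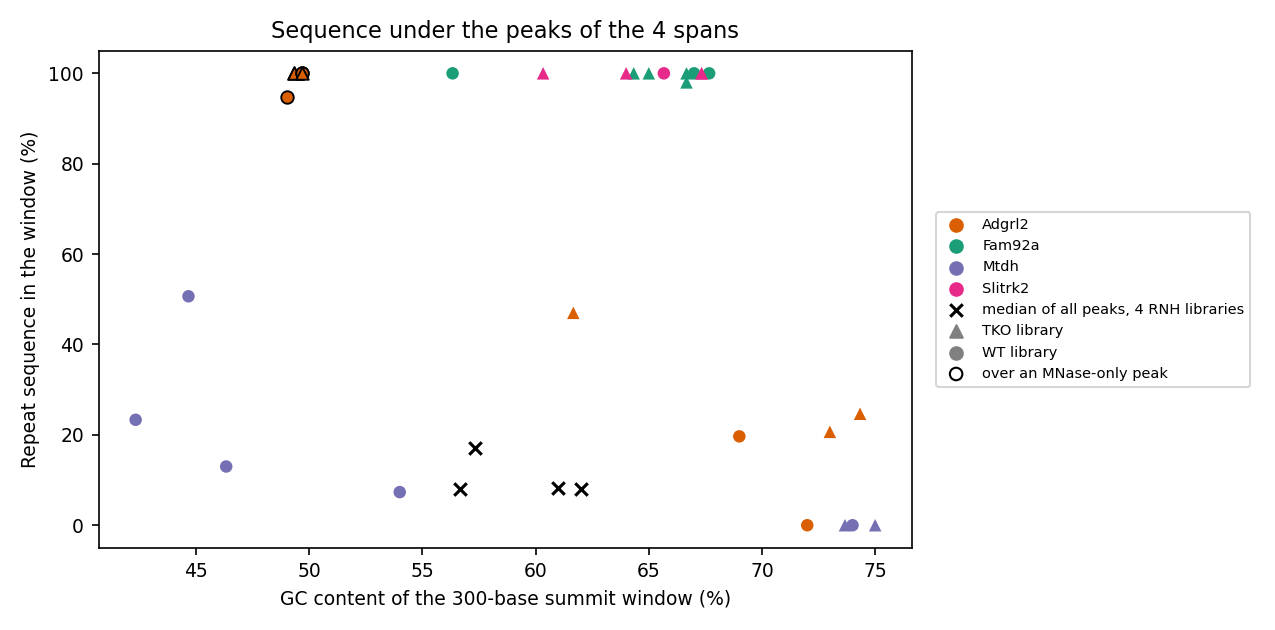
Each point is the 300-base window around the summit of 1 peak in the 4 spans, by GC content in percent (x axis) and percent of bases marked as repeat in the reference (y axis), with triangles for TKO and circles for WT libraries and crosses for the medians of all peaks of the 4 RNH libraries. Fam92a and Slitrk2 windows lie at 98% to 100% repeat, Mtdh start windows at 0%, and the outlined Adgrl2 points are the peak that the controls share.

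The Mtdh peaks away from the gene's start came from 1 library. WT replicate 1 had 4 of them, at chr15:34008834-34009148 with 3.51-fold, chr15:34016457-34017000 with 4.68-fold, chr15:34021609-34022017 with 3.60-fold and chr15:34054378-34054692 with 4.18-fold. The first has its summit 414 bp upstream of the 5′ end of the nearest lower transcript, the one the run begins with in the direction of transcription, and the third overlaps an exon of Gm41290. Their windows had 42.3% to 54.0% GC and 7.33% to 50.7% repeat. Neither TKO library nor WT replicate 2 had a peak at these 4 places. Of the 11 peaks of TKO replicate 1 in the 4 spans, 81.8% met a peak of WT replicate 1, against 57.0% of all its peaks. Of the 11 peaks of WT replicate 1 in the spans, 54.5% met a peak of TKO replicate 1, against 64.6% of all its peaks. At Adgrl2, Fam92a and Slitrk2, neighbouring TKO peaks met the same WT peak, so these shares do not count separate places.

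Partners of the 4 proteins were listed in both directions. Of all annotated protein-coding genes, 4.14% had a higher and 4.8% a lower gene entry in the authors' deposited table. Of 11 latrophilin and ligand genes, a gene entry was higher for 1, the teneurin Tenm2 at 4.17, and lower for 2, Adgrl2 itself and the teneurin Tenm4 at -1.38, on the log2 scale of the authors' deposited table. Of 9 Slitrk proteins and receptor phosphatases, the gene entry of Slitrk5 was higher at 2.40 and that of Ptprf lower at -1.06 in the authors' deposited table. Intergenic or antisense entries of partners also went both ways. In the authors' deposited table Adgrl3 had entries at 1.48 and -1.94, Tenm3 at 4.77 and -1.39, Tenm4 at 7.27 and Slitrk4 at 1.89. Of 8 genes of the cilium base none had a gene entry, and the only other named gene, Fam92b, had 1 intergenic entry at -1.23 in the authors' deposited table. Of Mtdh and 3 partners, the NF-kB subunit Rela had a lower gene entry at -1.08 in the authors' deposited table. Snd1, the nuclease that metadherin binds, had no gene entry but 6 others, all higher, from 2.07 to 3.71 in the authors' deposited table. These were intergenic, antisense and bidirectional entries, most of which were higher for all names too. Among all names, 1434 of 1937 intergenic, 323 of 373 antisense and 158 of 185 bidirectional entries were higher in the authors' deposited table. None of the 7 stem cell markers had a gene entry in the table, so the level of their gene transcripts cannot be read from it. Intergenic entries named for Sox2 (3, from 1.74 to 5.67) and Nanog (3, from 1.35 to 3.56) were higher and 1 named for Dppa5a was lower at -1.32 in the authors' deposited table. A peak within 1 kb of a start was found for 2 and 1 of the 7 markers in the TKO RNH libraries and for 5 and 0 in the WT RNH libraries. Of all annotated protein-coding genes, 50.2% and 14.6% had one in TKO RNH replicates 1 and 2, and 45.1% and 11.5% in WT. For the 5 fibroblast markers these counts were 3 and 1 in TKO and 3 and 1 in WT. Nothing is read from so few genes. Of 5 fibroblast markers Vim alone was listed, higher at 2.25 in the authors' deposited table; its part in the values above was not tested.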

How the data were processed

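Peak lists were analysed for 4 RNH and 2 MNase-only MapR libraries, together with 1 table made from 6 cheRNA samples; the other assays among the 32 samples were not analysed here. Build mm10 and the tools MACS2, DESeq2, bedtools, SAMtools, BWA and TopHat2 are named per the submitters' processing notes, where versions and roles are not given. The cheRNA table was deposited by the authors as log2 fold changes of transcripts named by class. The peak lists were deposited by the authors for single libraries in MACS2 layout, with a fold enrichment (a ratio), -log10 p and -log10 q values and a score for each peak. They hold no reads, so depth is unknown and no counting interval is given.

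The members and gene lists were chosen with earlier results of these data known. Named are the 4 members, entries and coding genes in their spans, listed genes of the fixed gene lists and any name with as many intergenic entries all lower; Triqk, Matn2 and the names just outside the threshold were added after their values were seen, as were the non-coding genes. Peaks were counted by an overlap of at least 1 bp after peaks over MNase-only peaks were removed. The value tested was log2((peaks + 0.5)/(all peaks + 1)), as mean TKO minus mean WT, by exact permutation over libraries. The p-values measure only the spread between these libraries, which may be technical. Annotation was GENCODE M21, and sequence and repeats (lower-case bases) came from the RefSeq GRCm38 genome; features on 21 of 21 chromosomes lay inside it. Python 3.11.15, NumPy 2.4.6, pysam 0.24.0 and matplotlib 3.10.9 were used, and the counting was tested on simulated data. Alternatives were a -log10 q of at least 5, other overlaps, denominators and pseudocounts, equal list lengths, spans widened by 100 kb, control peaks kept, each library left out, a replicate block, and peaks in repeats left out. Some names and a sequence are not reported here.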

Additional observations from a re-analysis of the deposited data

How the results depend on the processing

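The log2 difference in RNH peak share between TKO and WT was recomputed under 63 alternatives over the 4 spans and each span, and kept its sign in 53. Both counts include the replicate block, which cannot change the value, and a stricter overlap of peak and span, which left every value as it was. They also count as kept the Adgrl2 value with equal list lengths, 0.0064 against 0.72. Over the 4 spans the difference was -0.0071 with spans widened by 100 kb, against 1.09. For Adgrl2 it was -0.069 with peaks of -log10 q of at least 5 and -0.26 with widened spans, against 0.72. With equal list lengths it was 0.80 for Mtdh, against -0.22, and -0.79 for Slitrk2, against 0.72. The cause was not tested.

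Leaving out 1 library at a time, the difference ranged from -0.26 to 2.43 over the 4 spans, from 0.06 to 1.38 for Adgrl2, from -0.45 to 0.67 for Fam92a, from -1.25 to 0.81 for Mtdh and from 0.16 to 1.28 for Slitrk2. These values have no test. The sign turned without WT replicate 2 over the 4 spans (-0.26) and for Fam92a (-0.38), without TKO replicate 1 for Fam92a (-0.45) and Mtdh (0.81), and without WT replicate 1 for Mtdh (0.60).

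With replicate numbers as a block the difference is 1.09 by construction, so only the p could change. The exact p was 1, where 2 pairs allow no less than 0.5. The labels do not say that the numbers pair samples, and the replicate differences of TKO and WT peak shares correlated at -0.01 over 273 bins of 10 Mb. The 27 lower entries became 17 when those of 1 name and strand under 5 kb apart were counted once. With peaks in repeat windows left out, an alternative added after seeing the data, no value could be had for Fam92a and Slitrk2. The number of RNH peaks, 0 to 5 in a span, limits every comparison.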
